A study of Mus musculus with 10 samples.

Results

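Notch ligands and the Hes and Hey genes that Notch signaling turns on were examined for H3K27me3, a repressive histone mark, in hematopoietic stem cells of the mouse fetal liver that repopulate blood long term (LT-HSCs). The genes were taken by name, as members of a pathway needed when HSCs emerge in the embryo, with earlier results of these data known. They were the ligand genes Dll1, Dll3, Dll4, Jag1 and Jag2 and the target genes Hes1, Hes5, Hey1, Hey2 and Heyl, 10 of the 21951 protein-coding genes of the annotation. H3K27me3 was profiled by CUT&Tag, in which an antibody guides the Tn5 transposase to chromatin that carries the mark, and the cut fragments are sequenced. Of the 10 samples of the series, 6 were H3K27me3 libraries, with 3 from WT and 3 from KO embryos for IκBα, and the 4 IκBα samples were not analysed here. The study asked what loss of IκBα, an inhibitor of NF-κB that also acts in the nucleus, does to HSCs and their chromatin.

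All 6 libraries came from LT-HSCs sorted at E14.5 as LSK CD48-CD150+ cells (lineage negative, Sca1+, cKit+). WT stands for wild type and KO for knockout. Per the methods of the study the knockout allele was the targeted Nfkbia tm1Bal, carried from the germline on and bred from heterozygous parents, so effects within HSCs and effects of their surroundings cannot be told apart. The labels name no further allele or treatment in either group. The study describes more embryos of each genotype than libraries, from independent experiments, so a library may hold cells of more than 1 embryo. The labels do not tie libraries to embryos or experiments, and the p-values below measure only the spread between these libraries. Replicates 1 and 2 of both genotypes were read with 75 bp and replicate 3 of both with 50 bp. The read totals that the study lists for its libraries were not used here, and depth is described through the peaks in the deposited files. The libraries held between 1047 (WT replicate 3) and 6013 peaks (WT replicate 2), with 2325 in KO replicate 3 and 4160 to 5157 in the other 3. A typical peak reached a maximum of 6 to 10 fragments (library medians). WT replicate 3 stood apart: its peaks covered 1.90 Mb, against 7.61 Mb in KO replicate 3 and 18.2 to 27.8 Mb in the other 4 libraries. The promoter counts of the 10 genes that rest on it and the differences at Dll1 and Hey2 are therefore also given without it. The covered shares averaged over libraries include it. No peak lay at the Nfkbia promoter in any library, so the genotype labels could not be checked. Of 11 LT-HSC and blood genes (among them Kit, Runx1 and Gata2) 0 carried a promoter peak, as did 0 of 5 hepatocyte and 0 of 3 erythroid genes, whereas 4 of 4 neural genes and 2 of 5 endothelial genes (Kdr and Erg) carried one in at least 1 library. H3K27me3 is not a measure of expression, so this describes where the mark lay and does not identify the cells.

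Notch signaling passes between touching cells. A ligand of the Delta-like or Jagged family on the sending cell binds a Notch receptor on its neighbor, the receptor is cut, and its inner part moves to the nucleus, where it joins the DNA-binding protein RBPJ and activates genes of the Hes and Hey families. These encode basic helix-loop-helix repressors that often hold back differentiation, and the pathway is required for HSCs to arise from the endothelium of the embryonic aorta. H3K27me3 is deposited by Polycomb repressive complex 2 (PRC2), usually over CpG-rich promoters of developmental genes that are silent or lowly expressed.

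A peak was counted at the promoter when it overlapped by at least 1 bp the stretch between 5 kb before and 100 bp after each transcription start site (TSS) that the annotation gives for the gene, and at the body when it overlapped only the rest of the gene. By this measure 8 of the 10 genes had a promoter peak in at least 1 library, against 15.9% of all protein-coding genes and 19.1% of coding genes with a CpG-rich promoter. The 2 exceptions were Dll4 and Jag2, which had no peak at promoter or body in any library. Only Dll1 and Hey2 among the 10 had a promoter peak in all 6 libraries, against 2.66% of all coding genes and 3.97% of those with a CpG-rich promoter. Counting gene bodies as well left these numbers at 8 and 2 (backgrounds 17.6% and 3.49%). Without WT replicate 3, Heyl joined Dll1 and Hey2 with a promoter peak in all 5 libraries left, a pattern found in 6.38% of all coding genes.

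Because Polycomb marks lie over CpG-rich sequence, the 250 bases before the RefSeq TSS are shown for some of the genes. These are the genes with the largest covered share (Dll1 and Hes5) and those with no peak (Dll4 and Jag2). Hey2 was added after its values were seen, because its log2 total signal differed most between the genotypes among the fitted genes. That difference was not called, and Hey2 did not differ most in covered length. The sequences are from RefSeq on GRCm38.p6, which held 7 of the 10 genes in the table used (not Hes1, Hey1 and Heyl). They run 5′ to 3′ along the gene, and capitals mark CpG dinucleotides. At Jag2 the RefSeq TSS lay 281 bp inside the gene start used for the peaks, so its stretch lies within that gene model. The distance between the 2 starts was 453 bp at Dll3, 124 bp at Jag1, 60 bp at Dll1, 18 bp at Hey2 and 0 bp at Hes5 and Dll4. Dll1 lies on the minus strand (chr17:15376933-15377182), as do Hey2 (chr10:30842784-30843033) and Jag2 (chr12:112929496-112929745), whereas Hes5 (chr4:154960673-154960922) and Dll4 (chr2:119325534-119325783) lie on the plus strand.
Dll1: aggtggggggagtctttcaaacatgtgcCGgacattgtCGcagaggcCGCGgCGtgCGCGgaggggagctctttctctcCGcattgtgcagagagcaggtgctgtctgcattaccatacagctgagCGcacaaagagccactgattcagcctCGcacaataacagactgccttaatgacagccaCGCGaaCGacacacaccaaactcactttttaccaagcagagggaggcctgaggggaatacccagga
Hes5: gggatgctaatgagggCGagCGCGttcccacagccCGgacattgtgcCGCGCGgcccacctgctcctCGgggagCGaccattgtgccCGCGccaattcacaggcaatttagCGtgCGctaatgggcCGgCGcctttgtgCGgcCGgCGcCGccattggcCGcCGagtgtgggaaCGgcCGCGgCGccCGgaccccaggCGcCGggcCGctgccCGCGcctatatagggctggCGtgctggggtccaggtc
Hey2: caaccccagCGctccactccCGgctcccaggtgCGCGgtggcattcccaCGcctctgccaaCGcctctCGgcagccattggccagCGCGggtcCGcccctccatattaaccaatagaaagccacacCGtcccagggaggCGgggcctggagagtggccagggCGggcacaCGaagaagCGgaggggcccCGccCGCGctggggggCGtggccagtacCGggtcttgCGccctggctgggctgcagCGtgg
Dll4: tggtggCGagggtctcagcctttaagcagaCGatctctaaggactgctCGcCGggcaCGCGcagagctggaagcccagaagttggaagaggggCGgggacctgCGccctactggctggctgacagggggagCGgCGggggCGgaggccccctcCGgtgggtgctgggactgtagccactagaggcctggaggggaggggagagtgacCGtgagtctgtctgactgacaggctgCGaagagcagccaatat
Jag2: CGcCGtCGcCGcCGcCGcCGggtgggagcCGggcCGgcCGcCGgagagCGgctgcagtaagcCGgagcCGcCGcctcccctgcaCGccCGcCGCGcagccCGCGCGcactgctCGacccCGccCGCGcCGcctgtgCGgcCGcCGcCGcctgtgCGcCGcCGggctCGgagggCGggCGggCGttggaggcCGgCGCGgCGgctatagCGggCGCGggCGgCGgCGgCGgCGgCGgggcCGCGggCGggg
Peaks overlapped the Dll1 stretch in 3 WT and 3 KO libraries, the Hey2 stretch in 3 WT and 1 KO library and the Hes5 stretch in 2 WT and 1 KO library, and those of Dll4 and Jag2 in none. The number of CpGs was not ordered by the mark in these stretches. Jag2, without a peak, held 54, the most of the 7, and Dll4 held 14, next to 13 in Dll1, 22 in Hey2 and 32 in Hes5. Dll3 held 10 and Jag1 20, and the median over 32817 promoter stretches was 6. The core of the RBPJ site, TGGGAA, was searched on both strands together with the E-box CACGTG and the N-box CACNAG, to which Hes and Hey proteins can bind. TGGGAA was found at Hes5 (first bases at -226 on the minus and -82 on the plus strand relative to the gene) and at Hey2 (-207, minus strand), and CACNAG at Dll4 (-75, plus strand). CACGTG was found in 0 of the 7. Among all promoter stretches, 21.6% held TGGGAA, 36.7% CACNAG and 6.02% CACGTG, so a match is a description of letters and not of a bound site.

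The peaks were broad stretches, 41 in all at the 10 genes and between 1058 and 12302 bp wide, and the map of their positions shows where they lay along each gene.

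**Figure D1:**
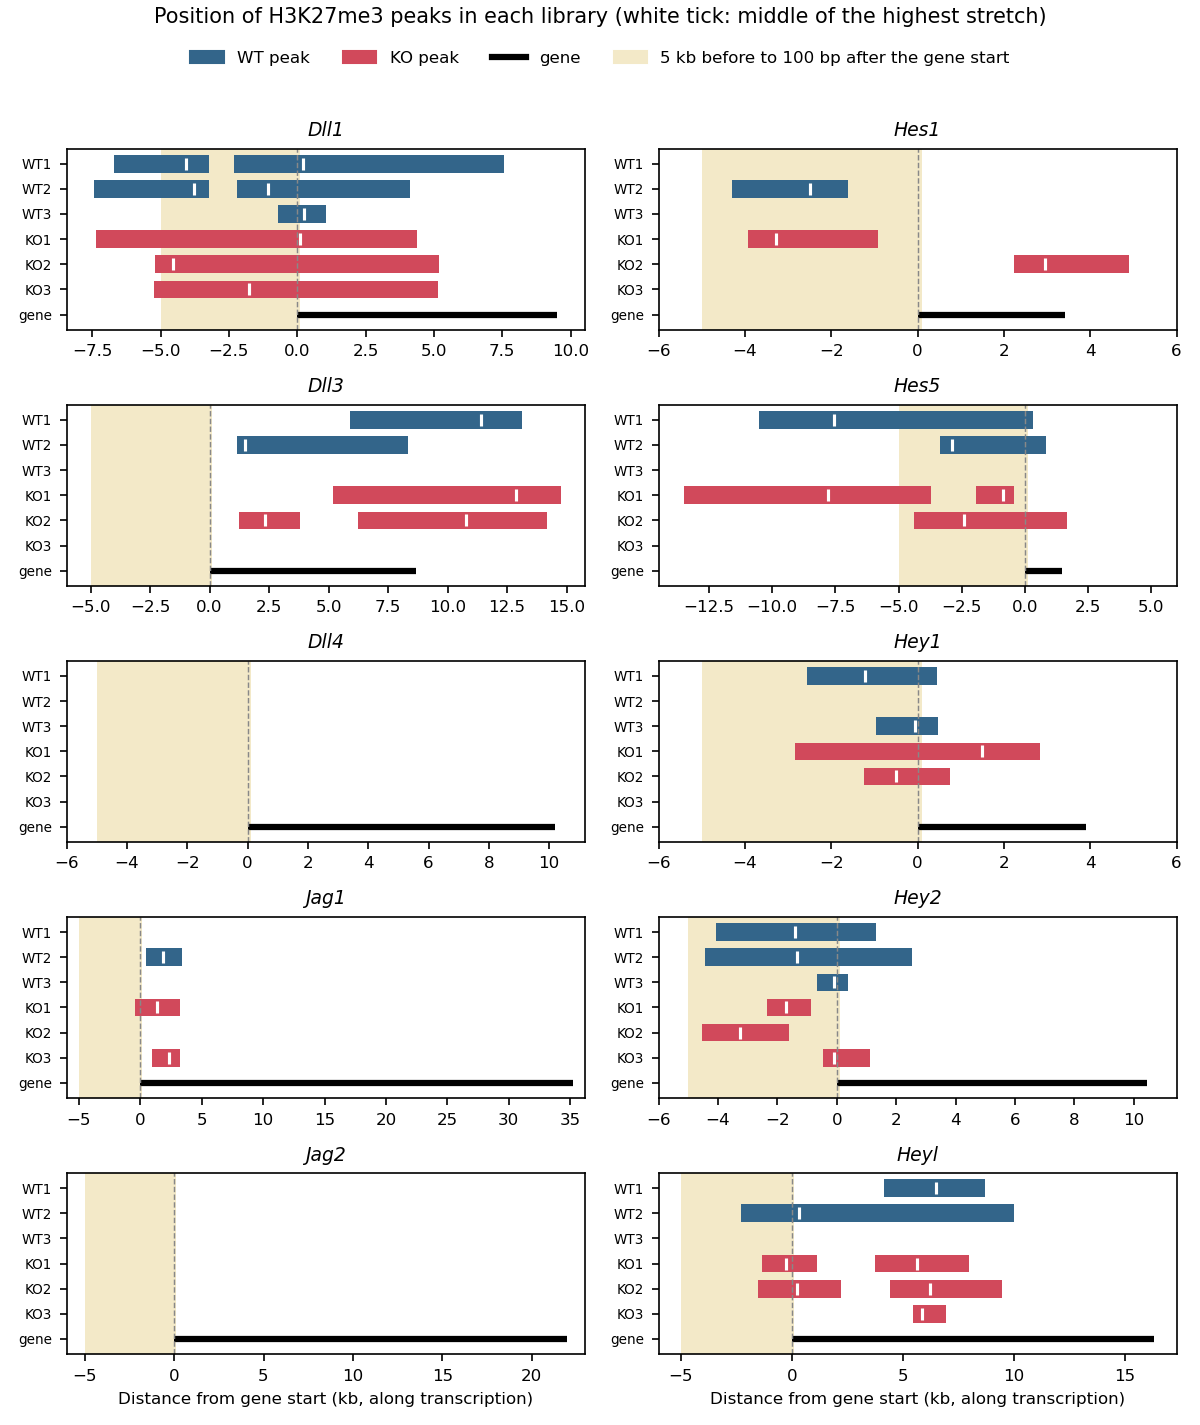
H3K27me3 peaks (bars) at the 10 genes, 1 row per library, against the distance from the gene start in kb along transcription. Shading marks 5 kb upstream to 100 bp downstream of the gene start, and white ticks mark the highest stretch of each peak. Dll1 peaks spanned the gene start in 6 of 6 libraries, Hey2 peaks in 3 WT and 1 KO library, and Dll4 and Jag2 held none.

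Among the ligands, Dll1 carried the broadest mark. Dll1 (ENSMUSG00000014773.13, chromosome 17, 15367354 to 15376872, minus strand) encodes Delta-like 1. A peak covered its start in every library, and these peaks also overlapped the noncoding gene A930024N18Rik. In WT the peaks were 9901, 6350 and 1767 bp wide with total signals (fragment coverage added up over all bases of the peak) of 39285, 32992 and 4625 in replicates 1, 2 and 3. In KO they were 11726, 10393 and 10380 bp wide with total signals of 66193, 49225 and 45066. WT replicates 1 and 2 had a further peak upstream, with totals of 11115 and 16278. The KO start peaks ran on into that stretch, and in KO replicate 2 a separate peak of 8564 followed after a break. The start peak was stronger than 88.4% to 99.4% of all peaks of its library in 5 libraries and than 59.7% in WT replicate 3. At its highest point it reached 12, 13 and 5 fragments for WT against 18, 13 and 10 for KO. Within the gene it took in 374 to 2522 bp of exons and 694 to 5055 bp of introns.

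Dll3 (ENSMUSG00000003436.11, chromosome 7, 28293553 to 28302238, minus strand), a divergent ligand that inhibits Notch within the cell that makes it, was marked away from its start. Peaks lay in WT replicates 1 and 2, with totals of 24255 and 25272, and in KO replicates 1 and 2, with totals of 43516 and 32592, the latter joined by a smaller peak of 9037. They counted as promoter peaks through an internal TSS at 28294481 and the 5 kb before it, and 0 of them covered the gene start. Those of WT replicate 1 and of KO replicates 1 and 2 ran on into the neighboring gene Selenov. The 50 bp libraries had no peak within the gene or its promoter, though KO replicate 3 had one of 11671 past the 3′ end, as did WT replicate 2 (21350).

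Jag1 (ENSMUSG00000027276.7, chromosome 2, 137081456 to 137116644, minus strand), the Jagged ligand of arterial endothelium and of the aortic niche, carried small peaks near its 5′ end. They were 2934 bp wide in WT replicate 2, 3611 bp in KO replicate 1 and 2287 bp in KO replicate 3, with totals of 8748, 14895 and 8428. In KO replicate 1 the peak reached 406 bp upstream of the start and so counted as a promoter peak, and in the other two it began 466 and 962 bp inside the gene. These 3 peaks were stronger than 26.1%, 52.8% and 27.7% of the peaks of their libraries. Dll4 (ENSMUSG00000027314.6, chromosome 2, 119325784 to 119335962, plus strand), a ligand of arterial endothelium and vessel sprouting, and Jag2 (ENSMUSG00000002799.6, chromosome 12, 112907819 to 112929776, minus strand), the second Jagged ligand, had no peak. A missing peak says that the signal stayed outside the strongest 0.5% kept in a library, and not that the mark was absent.

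Of the target genes, Hey2 (ENSMUSG00000019789.9, chromosome 10, 30832359 to 30842801, minus strand), a repressor needed for arterial and heart development, was marked in every library but not over the same bases. In WT the peaks covered the gene start in 3 of 3 libraries and were 5397, 6946 and 1058 bp wide with totals of 20224, 28996 and 4171. In KO they were 1473, 2925 and 1573 bp wide with totals of 8291, 10877 and 10319. The peaks of KO replicates 1 and 2 lay wholly upstream, at -2355 to -883 bp and at -4533 to -1609 bp from the start, and that of KO replicate 3 ran from -468 to 1104 bp. The WT peaks thus took in 236 to 1967 bp of Hey2 exons, and 2 of the 3 KO peaks took in none. At their highest point the peaks reached 9, 12 and 9 fragments for WT against 16, 8 and 18 for KO, and the groups overlapped in height and in width. By rank within its library the groups overlapped, since the peak was stronger than 75.4%, 85.0% and 44.8% of peaks in WT and than 18.8%, 39.4% and 49.4% in KO.

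Hes5 (ENSMUSG00000048001.7, chromosome 4, 154960923 to 154962371, plus strand), a Notch effector best known from neural progenitors, lay at the end of a wide upstream domain that in 3 libraries also overlapped the gene model Gm20421. The peaks of WT replicates 1 and 2 covered its start with totals of 34341 and 18460, as did that of KO replicate 2 with 18189. KO replicate 1 had upstream peaks of 44123 and 7495, the nearer ending 448 bp before the start. WT replicate 3 had no peak there, and KO replicate 3 had one of 15506 farther upstream only. In the 4 libraries with 75 bp reads 42.8% to 90.4% of the Hes5 promoter and body were covered, without a clear order of the genotypes (82.5% and 65.0% in WT, 42.8% and 90.4% in KO).

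Hes1 (ENSMUSG00000022528.8, chromosome 16, 30064384 to 30067796, plus strand), a Notch target in blood and many other tissues, had only weak peaks, and 0 of them covered its start. WT replicate 2 and KO replicate 1 had a peak of 9063 and 10274 upstream, ending at -1619 and -917 bp from the start. KO replicate 2 had one of 9480 over the 3′ end, where KO replicate 1 had one of 10079 just outside the gene. These peaks were stronger than 28.3% to 33.4% of the peaks of their libraries, and WT replicates 1 and 3 and KO replicate 3 had none.

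Hey1 (ENSMUSG00000040289.8, chromosome 3, 8663359 to 8667256, minus strand), a Notch target in endothelium, had peaks over its start in 2 WT and 2 KO libraries. The totals were 11493 in WT replicate 1, 4222 in WT replicate 3, 17092 in KO replicate 1 and 7895 in KO replicate 2. Hey1 was the only target gene besides Hey2 with a peak in WT replicate 3, although WT replicate 2, the library with the most peaks, had none.

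Heyl (ENSMUSG00000032744.4, chromosome 4, 123233556 to 123249875, plus strand), a Hey relative expressed in vascular smooth muscle, carried 2 separate domains, 1 over the gene start and 1 around an internal TSS at 123239757. In WT replicate 2 a single peak of 12302 bp and a total of 43173 joined them, whereas WT replicate 1 had the internal domain alone (16220). KO replicates 1 and 2 had both, with totals of 9311 and 20609 and of 10661 and 21405. KO replicate 3 had the internal domain alone (7162), and WT replicate 3 had neither. Heyl therefore had a promoter peak in all 3 KO and in 2 WT libraries, but its gene start was covered in 2 KO and 1 WT library.

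The summed signal of each gene in each library is shown as a heat map. To set libraries side by side, total signal was divided by the median of the library over the 718 regions that carried a peak in all 6 libraries.

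**Figure D2:**
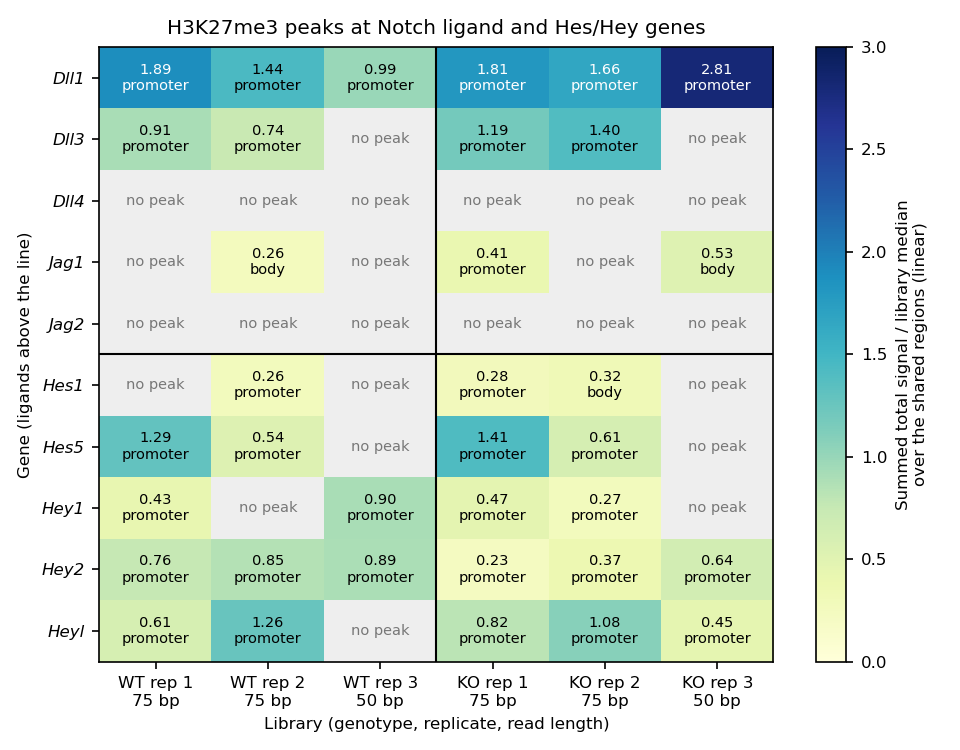
Summed total signal of the peaks that overlap each gene (rows), relative to the library median over 718 shared regions (linear color scale), in the 6 libraries (columns), with a note of whether a peak lay at the promoter or only in the body. Dll1 ranged from 0.99 to 2.81 and Hey2 from 0.23 to 0.89, both without an empty cell, and the 50 bp columns hold the most empty cells.

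The number of marked genes varied within each genotype. Of the 10 genes, 6, 6 and 3 had a promoter peak in WT replicates 1 to 3, against 8, 6 and 3 for KO, so the groups overlapped. The same measure over all protein-coding genes gave 10.6%, 13% and 3.5% in WT and 12.9%, 12.2% and 8.11% in KO. Present in all 3 WT libraries were 2 genes, Dll1 and Hey2 (background 3.02%), and in all 3 KO libraries 3, the same 2 and Heyl (background 7.17%). Without WT replicate 3 the WT count rose to 5 (Dll1, Dll3, Hes5, Hey2 and Heyl; background 9.74%), and without KO replicate 3 the KO count rose to 6 (the same 5 and Hey1; background 10.8%). None of the 10 genes had a promoter peak in all 3 KO libraries and in no WT library, a pattern found in 0.0866% of coding genes.

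The length of promoter and body covered by peaks was compared next, since it has a value of 0 also where a library has no peak. Averaged over the 6 libraries, the covered share was 58.8% for Dll1, 46.8% for Hes5, 26.4% for Heyl, 22.7% for Hey1, 22.6% for Dll3, 20.9% for Hey2, 13.6% for Hes1 and 3.66% for Jag1. The libraries ranged from 12.2% to 80.3% for Dll1 and from 0% to 90.4% for Hes5, and all neighbors in this order had overlapping ranges. Dll1 and Hey2 (6.85% to 45.0%) were the only ones above 0 in every library.

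**Figure D3:**
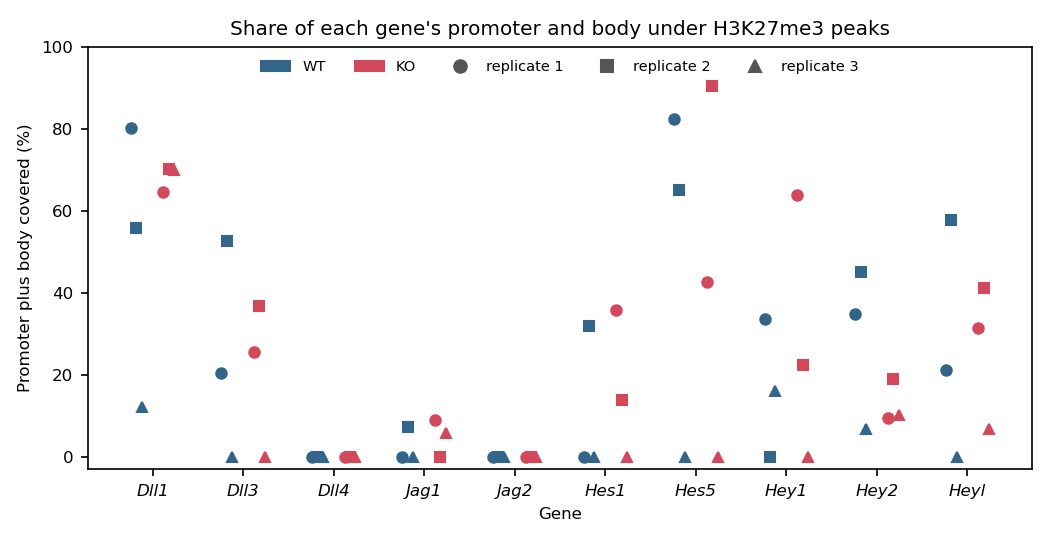
Share of promoter plus body under peaks (percent of length) for each gene, with 1 point per library, WT in blue and KO in red, and the symbol giving the replicate. WT and KO points intermix at every marked gene, and both triangles of replicate 3 lie at 0 at Dll3, Hes1 and Hes5.

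WT libraries had 11661, 8120 and 1767 bp covered at Dll1 and KO libraries 9376, 10185 and 10148 bp. The means were 7183 ± 5013 bp for WT and 9903 ± 457 bp for KO (SD, n = 3 each), a difference of 2720 bp that was smaller than the WT spread (exact permutation test, two-sided, p = 0.6). Without WT replicate 3 the difference was 12.5 bp, within the 75 bp libraries it was -110 bp, and without WT replicate 1 it was 4960 bp. At Hey2, where the peak widths above are also the covered lengths, the means were 4467 ± 3052 bp for WT and 1990 ± 811 bp for KO (SD, n = 3 each), a difference of -2477 bp (exact permutation test, two-sided, p = 0.4). Here the groups overlapped through WT replicate 3 (1058 bp), and the difference was -4181 bp without it but -1237 bp without WT replicate 2. The differences at Dll3, Hes1, Hes5, Hey1, Heyl and Jag1 lay between -478 and 1082 bp, with p from 0.7 to 1 in the same exact permutation test, and all were smaller than the spread within a genotype. With 3 libraries against 3 this test cannot give a p below 0.1, a value reached at 1.66% of the 3860 coding genes tested and at 0 of the marked Notch genes. After adjustment over the 3860 genes each of these p-values was 1.

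Signal was then compared where every library had a peak, which left Dll1 and Hey2 in the chosen fit. The fit was limma on log2 total signal, centred on the median of each library, over all 718 shared regions. It called 0% of the regions at an adjusted p under 0.05, and 8 regions at an unadjusted p under 0.05, 4 higher and 4 lower in KO. With regions called in at least 3 libraries, and a library without a peak set to its smallest called total, 5 more of the genes could be fitted. The KO minus WT differences of their merged regions on the log2 scale were 0.37 at Dll3, 0.29 at Jag1, 0.34 at Hes5, 0.03 at Hey1 and 0.06 at Heyl, each with a limma adjusted p of 0.999 and a SE of 0.46. The regions of Dll3 and Hes5 also took in peaks outside gene and promoter. In KO replicate 3 they held only such a peak (totals 11671 and 15506). WT replicate 3 had no peak at Dll3, Hes5 and Heyl, so its values there were floors, set to its smallest called total. In the fit without it, over regions called in the other 5 libraries, the differences were -0.05, -0.20 and -0.25, also not called. Jag1 had a peak in 3 libraries and Hey1 in 4, so their other values were floors as well. No fit without floors held these genes.

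At the Hey2 region (chromosome 10, 30840285 to 30847334) WT replicates 1, 2 and 3 had a relative total signal of 0.760, 0.846 and 0.893, and the KO replicates of 0.226, 0.367 and 0.643. All 3 KO values lay below all 3 WT values, which held for 4.46% of the 718 regions. WT replicate 3 could not have fallen among the KO values, because the smallest peak called there was already at 0.716 of its median, against 0.183 to 0.418 in the other 5 libraries. Without WT replicate 3 the log2 difference described next was -1.08. On the log2 scale the centred level was -0.27 ± 0.12 in WT and -1.41 ± 0.75 in KO (SD, n = 3 each), a difference of -1.14 ± 0.40 (SE; 95% interval -2.03 to -0.26). This was the lowest difference of the 718 regions, with an unadjusted limma p of 0.0164. An unadjusted p under 0.05 in the lower direction was reached by 0.557% of the regions. The limma adjusted p at Hey2 was 0.993 and the difference was not called. The difference was -1.46 ± 0.35 (SE) within the 75 bp libraries, and within each of the 3 same-numbered pairs KO was lower. Without KO replicate 1 it was -0.77, with a 95% interval of -1.70 to 0.16. Height did not show it. The maximum signal differed by 0.09 (95% interval -0.55 to 0.72) and the signal per covered base by 0.14 (-0.33 to 0.60) on the log2 scale, both slightly higher in KO and neither called.

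At the Dll1 region (chromosome 17, 15369296 to 15385688), which takes in an upstream peak of KO replicate 2, the values were 1.89, 1.44 and 0.990 for WT against 1.81, 1.95 and 2.81 for KO. The groups overlapped, since KO replicate 1 lay below WT replicate 1. The centred log2 level was 0.48 ± 0.47 in WT and 1.10 ± 0.34 in KO (SD, n = 3 each), a difference of 0.62 ± 0.36 (SE; 95% interval -0.17 to 1.42) with a limma adjusted p of 0.993. It was 0.39 without WT replicate 3 and 0.20 within the 75 bp libraries, and the 50 bp pair differed most. KO was higher in 2 of the 3 same-numbered pairs.

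**Figure D4:**
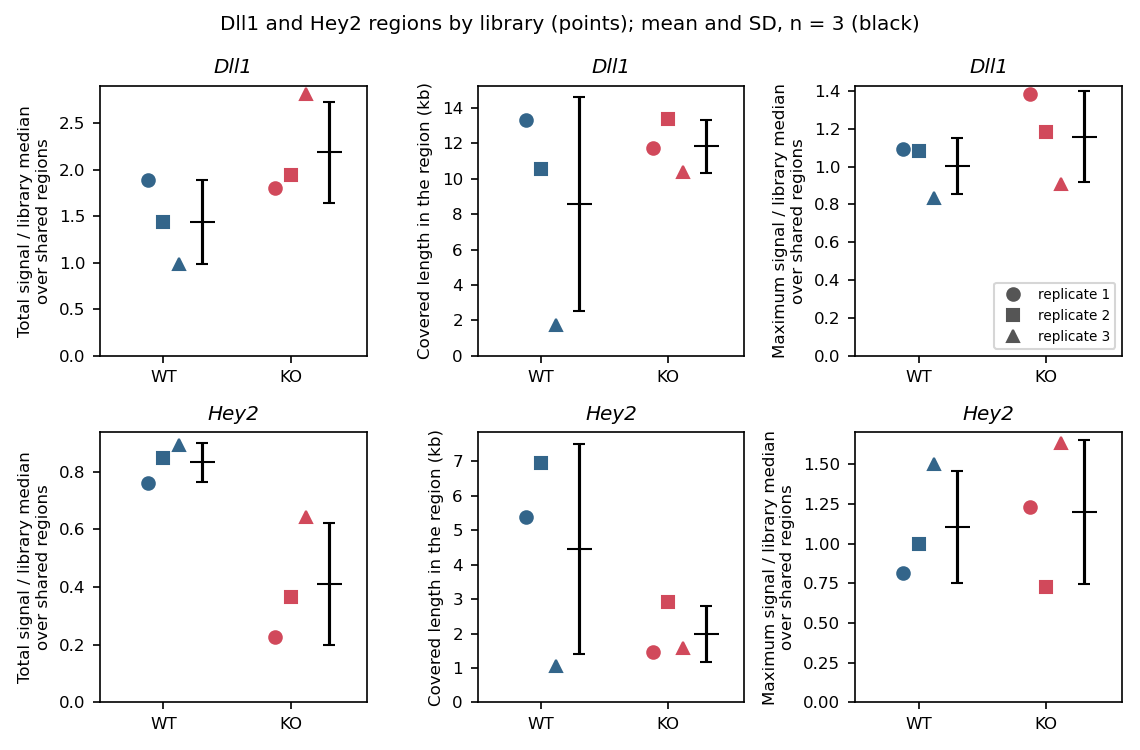
Total signal relative to the library median, covered length in kb and maximum signal relative to the library median for the Dll1 (top) and Hey2 (bottom) regions, with 1 point per library and the mean and SD of each genotype (n = 3) in black. The WT and KO points part without overlap only in the Hey2 total signal (0.760 to 0.893 against 0.226 to 0.643).

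**Figure D5:**
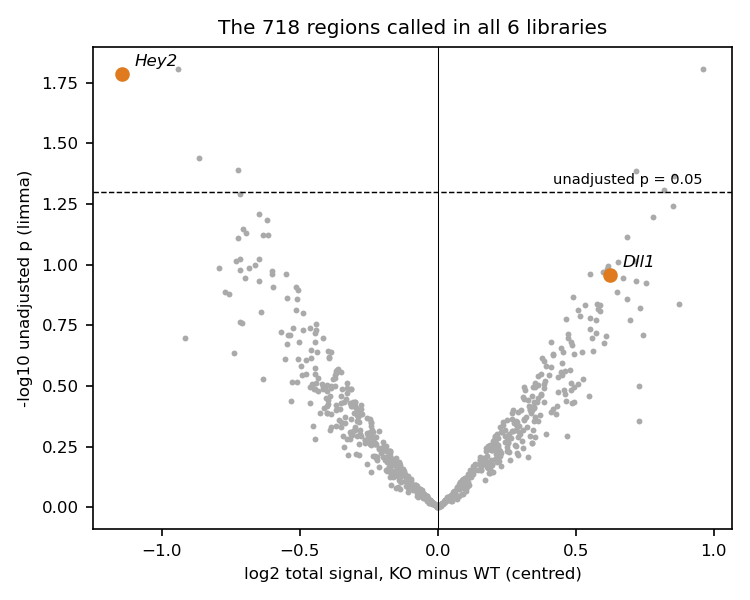
The 718 regions with a peak in all 6 libraries, by log2 difference in centred total signal (KO minus WT, x axis) and -log10 of the unadjusted limma p (y axis), with the dashed line at 0.05. Hey2 is the leftmost point at -1.14 and Dll1 lies at 0.62 below the line.

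The regions whose levels over the 6 libraries were most like those of Dll1 and Hey2 were looked up among the 717 others by the root-mean-square difference of the centred log2 totals. For Dll1 it was the region of Gpr153 and Hes3 on chromosome 4 (152272170 to 152289091), at a distance of 0.20 against a median of 1.11 over all other regions. In WT replicate 3 the only peak there did not reach the promoter or body of Hes3, so the likeness is that of the region and not of Hes3, a Hes family gene. For Hey2 it was the region at Piezo2, which encodes a mechanosensitive ion channel, at a distance of 0.45 against a median of 1.18. The KO minus WT differences of these 2 regions were 0.45 and -0.54 on the log2 scale.

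The rest of the pathway was taken from a list of 56 other genes. Promoter peaks in at least 1 library were present at 15 of them (26.8%; all coding genes 15.9%), in all 3 WT libraries at 3 (all coding genes 3.02%), in all 3 KO libraries at 8 (7.17%) and in all 6 at 3 (2.66%), so the share over all coding genes was also higher for KO. Without WT replicate 3, counts added after the data were seen, 6 had a promoter peak in both remaining WT libraries (9.74%) and 5 in all 5 libraries (6.38%). The 4 receptor genes had no promoter peak, and only Notch3, with a body peak of 9335 in WT replicate 2, had any. The 5 glycosyltransferases that tune the receptor (such as Lfng) and the 9 protease genes that cut it had none at promoter or body. All 3 genes of non-canonical ligands had a promoter peak in some library: Dlk1 and Dlk2, each in 1 WT and 2 KO libraries, and Dner in 1 KO library, with a peak in its body in another. Of 5 genes for ligand endocytosis, Mib2, Neurl1a and Neurl1b had promoter peaks, in 1, 2 and 1 WT libraries and in 0, 3 and 3 KO libraries. With bodies counted, Mib2 and Neurl1a had a peak in all 6 libraries.

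Rbpj and the Maml coactivators had no promoter peak, whereas Rbpjl, the paralog of Rbpj found in pancreas, had one in 2 WT and 2 KO libraries, and it was the single marked gene among 6 nuclear effectors. Of 8 corepressor genes only Tle3 was marked, in 2 KO libraries, and of 9 regulators of the receptor Dtx1 (all 6 libraries) and Dtx4 (1 WT and 1 KO library) were. These shares of 16.7%, 12.5% and 22.2% lay near the 15.9% of all coding genes. Of the further Hes and Hes-like genes, 5 of 7 had a promoter peak in at least 1 library: Hes2 and Bhlhe41 in all 6 libraries, Hes3 and Helt in 2 WT and 3 KO libraries, and Bhlhe40 in 3 KO libraries with totals of 9101, 8903 and 10248 and in no WT library. Bhlhe40, a repressor linked to the circadian clock, was 1 of the 19 coding genes with this KO pattern, and this pattern was not tested. These counts come from the same libraries as those of the 10 genes, with the same few peaks in WT replicate 3.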

How the data were processed

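H3K27me3 CUT&Tag peaks from 6 libraries (3 WT, 3 KO) were used. According to the methods of the study, the authors trimmed reads with Trim Galore 0.6.6, aligned them to GRCm38 with Bowtie2 2.4.4, removed duplicates and reads with a mapping quality under 20, and ran SEACR 1.3 on every library by itself (stringent mode, no IgG control, top 0.5%) to call peaks. Peaks in blacklisted regions were removed per the file names, and which list was used is not given in the sources used here. The deposited signal of a peak is its summed and its highest fragment coverage, neither scaled to depth, so it rises with library size. The share of 0.5% is relative to each library, so the weakest peak kept differs between libraries (smallest total 3344 in WT replicate 3, 6616 to 7307 in the others).

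Gene models were from GENCODE M21 (coordinates are 1-based, GRCm38). A CpG-rich promoter had a GC content of at least 50% and an observed over expected CpG ratio of at least 0.6 in the 1 kb around the gene start. Peaks overlapping by at least 1 bp were merged over libraries into regions, and total signal was summed per region. The 718 regions present in all 6 libraries were centred on the library median and fitted with limma 3.58.1 (R 4.3.3) with genotype as the only term, with Benjamini-Hochberg adjustment at 0.05. Covered length was compared by exact two-sided permutation over the 20 assignments of libraries. Scripts were tested on simulated data. Python 3.11.15, numpy 2.4.6, scipy 1.17.1 and matplotlib 3.10.9 were used.

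Same-numbered libraries deviated together from their group means (r across regions was 0.28 for replicate 1, 0.31 for replicate 2 and 0.48 for replicate 3). Differently numbered libraries were not compared in this way. Replicate 3 of both genotypes also had 50 bp reads and the fewest peaks of its genotype, so these values do not show that libraries are paired. A replicate block was run only as an alternative. The 10 genes, the pathway list, the marker lists and the rules for naming genes and showing promoters were chosen with earlier results of these data known. All 10 genes are named, other pathway genes where a peak was called, and for Dll1 and Hey2 the region nearest in level.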

Additional observations from a re-analysis of the deposited data

How the results depend on the processing

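Of 139 values recomputed under another setting, 109 kept their direction or stayed within 1.5 times, 11 counts moved and 19 differences changed sign. Genes with a promoter peak in all 3 WT libraries (2) numbered 1 with peaks above the library median (1.35% of all coding genes under the same rule), 6 when 2 of 3 libraries were enough (10.1%) and 5 with replicates 1 and 2 alone (9.74%), and leaving out 1 library gave 2 to 5 (3.02% to 9.74%). For KO (3) these were 1 (3.56%), 6 (11.52%) and 6 (10.8%), with 1 (1.92%) for the 1047 top peaks of every library and 3 to 6 (7.17% to 10.8%) when 1 library was left out. Hey2 lost its call in all 3 KO libraries, and so in all 6, with the top peaks, with peaks above the median, with a promoter of 1 kb to either side and with the TSS within the peak, and the latter pair gave a KO count of 2 (Dll1 and Heyl). limma called 0 regions in all 14 settings, with 5 to 119 at an unadjusted p under 0.05. With the replicate block, 24 regions were under it (8 higher and 16 lower in KO) instead of 8. The block gave Hey2 -1.14 ± 0.32 (SE; limma adjusted p 0.907) and Dll1 0.62 ± 0.34 (SE), and changed no call. Hey2 kept its direction in 11 of 13 alternatives, and turned to 0.0851 for the maximum signal and to 0.136 per covered base (log2). It ranged from -1.51 to -0.77 when 1 library was left out, and Dll1, which kept its direction in 13 of 13, from 0.39 to 0.85.

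Covered length, KO minus WT, changed sign with the top peaks of every library at Dll3 (1062 bp), Hey1 (-478 bp) and Heyl (-4101 bp), per Mb covered at Hey1 (-196 bp), and with replicates 1 and 2 alone at Dll1 (-110 bp) and Heyl (-670.5 bp). Leaving out 1 library gave 12.5 to 4960 bp at Dll1, 165.5 to 1971 bp at Jag1, -4181 to -1237 bp at Hey2, -2142 to 1454 bp at Dll3, -305 to 1394 bp at Hes1, -1893 to 1124 bp at Hes5, -479 to 2361 bp at Hey1 and -2763 to 3389 bp at Heyl. Hey2 stayed negative throughout. Its difference reached the smallest possible p of 0.1 per Mb covered (-235 bp) and with the top peaks (-4467 bp, exact permutation tests). Both settings turn on WT replicate 3. Per Mb covered, its 1058 bp is divided by the smallest covered length of any library (1.90 Mb). The top-peak rule keeps all of its 1047 peaks, and 0 KO libraries kept a Hey2 peak. How many of all genes reach this p under these settings was not counted, so no conclusion is drawn from it. Jag1 and Hes1 had no top peaks, so that setting gave no value there. With paired signs the exact test cannot go below 0.25. Same-numbered WT and KO libraries had promoter peaks at 6 and 8, 6 and 6, and 3 and 3 of the genes for replicates 1, 2 and 3, a count with no test. The low coverage of both 50 bp libraries limits what a missing peak means.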
